A study of Homo sapiens with 12 samples.

Results

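The genes described here are 10 enzymes of fatty acid synthesis and desaturation, ACLY, ACSS2, ACACA, ACACB, FASN, ELOVL6, SCD, FADS1, FADS2 and GPAM. They were chosen by name from the pathway, and all 10 were among the 35810 genes with summed counts and among the 12821 genes tested. RNA was measured in HepG2, a human line from a liver tumour, in 4 groups of 3 libraries. Wild-type (WT) cells and cells with ARID1B, a subunit of the BAF chromatin remodelling complex, knocked out by CRISPR/Cas9 (ARID1B-KO) were each given sorafenib, a multikinase inhibitor used in liver cancer, at 5 µM for 48 h, or DMSO vehicle at 0.1% v/v. The 3 replicates of a group are stated to be biological. The labels do not give the number of knockout clones, so an effect of the edit and an effect of the clone cannot be told apart.

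Libraries held 19739582 to 29398257 estimated counts. Of the counts matched to annotated genes, 6.75% to 12.3% came from the mitochondrial chromosome. ARID1B, as a check of the labels, was at 58.4 to 69.1 CPM (counts scaled to the normalised library size) in the 6 WT libraries and at 25.9 to 35.6 CPM in the 6 ARID1B-KO libraries. All 9 hepatocyte markers were above 1 CPM in each group, and their summed level ran from 80520 to 90120 CPM in WT with DMSO and from 117600 to 183700 CPM in ARID1B-KO with sorafenib. The markers did not move together. Between these groups mean ALB went from 32590 to 88910 CPM, and AFP, APOA1, TF, SERPINA1 and HNF4A were also higher. Mean APOB went from 18210 to 9675 CPM, and TTR and FGB were also lower. The blood markers PTPRC and HBB, the fibroblast markers COL1A2 and DCN and the adipocyte markers LEP and FABP4 were at 0 in every group. The other markers of these lists were not. The 5 blood markers, CD68 the highest, summed to 28.2 to 34.6 CPM in WT with DMSO and 31.9 to 48.0 in ARID1B-KO with sorafenib. The 3 cholangiocyte markers summed to 227 to 262 CPM and to 248 to 274 CPM in these groups. The adipocyte marker PLIN1 was at 0.112 to 0.445 CPM and at 1.51 to 2.72 CPM. The 3 endothelial markers summed to 1.16 to 1.95 CPM in WT with DMSO and to 7.01 to 10.7 CPM in ARID1B-KO with sorafenib. The 4 fibroblast markers summed to 13.8 to 22.1 CPM and to 0.889 to 1.64 CPM, nearly all of it PDGFRB (means of 17.65 and 1.20 CPM). The 3 epithelial markers summed to 1710 to 1832 CPM and to 1016 to 1095 CPM, with KRT8 and KRT18 lower and EPCAM higher on average. The part of these shifts in the results was not tested.

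Fatty acids are built in the cytosol from acetyl-CoA, which ACLY makes from citrate and ACSS2 from acetate. Acetyl-CoA carboxylases turn it into malonyl-CoA, fatty acid synthase joins these units into palmitate, and elongases and desaturases then lengthen the chain and place double bonds before acyltransferases such as GPAM attach it to glycerol. In liver the pathway is under the control of the sterol regulatory element binding protein SREBP-1c and of the carbohydrate response factor ChREBP, and AMPK restrains it by phosphorylating the carboxylases.

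Promoter windows of 9 members, from 250 bases before to 50 after each annotated start, were taken from RefSeq on GRCh38.p14. 4 motifs were searched on both strands. FASN had no window and was not searched. Neither the sterol regulatory element TCACNCCAC nor the E-box CACGTG was found in the windows of these 9 genes. Over 27305 genes 1.39% and 8.77% held them. Sites with other letters or outside the windows were not searched. The CCAAT box, CCAAT, was found in at least 1 window of 7 of the 9 (ACACA, ACACB, ACLY, ACSS2, FADS2, GPAM and SCD), against 39.7% of all genes. The GC box, GGGCGG, was found in at least 1 window of all 9, against 48.3%. Several members had more than 1 window and so more chances of a match, and these shares are not adjusted for that. Of all 35116 single windows, 34.6% held the CCAAT box and 45% the GC box. The upstream stretches below belong to 3 members that were called higher with sorafenib in WT cells and that hold the CCAAT box, which is in capitals on either strand (CCAAT or ATTGG).
ACLY, chr17:41919023-41919272, minus strand: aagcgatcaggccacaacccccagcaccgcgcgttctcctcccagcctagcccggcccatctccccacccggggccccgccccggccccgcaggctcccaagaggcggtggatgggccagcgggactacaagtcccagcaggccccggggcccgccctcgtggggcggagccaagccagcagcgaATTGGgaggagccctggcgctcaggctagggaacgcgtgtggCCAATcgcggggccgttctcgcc
ACSS2, chr20:34874739-34874941, plus strand: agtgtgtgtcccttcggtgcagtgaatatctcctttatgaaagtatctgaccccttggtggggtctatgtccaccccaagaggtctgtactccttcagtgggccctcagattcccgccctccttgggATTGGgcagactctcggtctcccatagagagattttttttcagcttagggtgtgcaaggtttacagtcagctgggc
SCD, chr10:100346983-100347232, plus strand: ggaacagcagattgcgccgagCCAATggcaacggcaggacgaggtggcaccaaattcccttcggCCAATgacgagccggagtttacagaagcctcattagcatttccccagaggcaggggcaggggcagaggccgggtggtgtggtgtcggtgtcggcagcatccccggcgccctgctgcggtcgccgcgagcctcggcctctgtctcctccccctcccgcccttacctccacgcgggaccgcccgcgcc
ACLY and SCD each held 2 copies here and ACSS2 1, and the copy of GPAM lies after its start. The ACSS2 stretch precedes the start of a transcript with 64.1% of the ACSS2 counts on average, and the window of the canonical ACSS2 start, at 34876612, held 0 copies. The 2 copies of ACACB lie before the start at 109154679, near which a transcript with 0.628% of the ACACB counts begins, and the window of its canonical start, at 109116587, held 0. A match of letters describes the window and shows no binding.

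Sorafenib raised 5 of the 10 enzymes in WT cells (ACLY, ACSS2, ACACB, SCD and GPAM) and lowered none at an adjusted p under 0.05 or at an unadjusted p under 0.05. Of all genes tested, 35.4% were called in this comparison, 17.5% higher and 18.0% lower. For 7 of the 10 the libraries of the 2 groups did not overlap, as was so for 50.8% of all genes. In ARID1B-KO cells the drug raised ACSS2 and ACACB and lowered ELOVL6 and FADS1, against a background of 46.7% of genes called, 23.0% higher and 23.7% lower, and 5 members did not overlap, beside 52.9% of all genes. The median log2 fold change of the 10 members was 0.52 in WT and 0.11 in ARID1B-KO cells, beside medians of -0.01 and 0.01 over all genes. In RNA from whole cultures, more RNA per cell and more cells that hold the RNA cannot be told apart. Each adjusted p below is from edgeR's quasi-likelihood test with Benjamini-Hochberg adjustment, each error is a standard error (SE), and CPM are not corrected for length and so are not compared between genes.

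**Figure D1:**
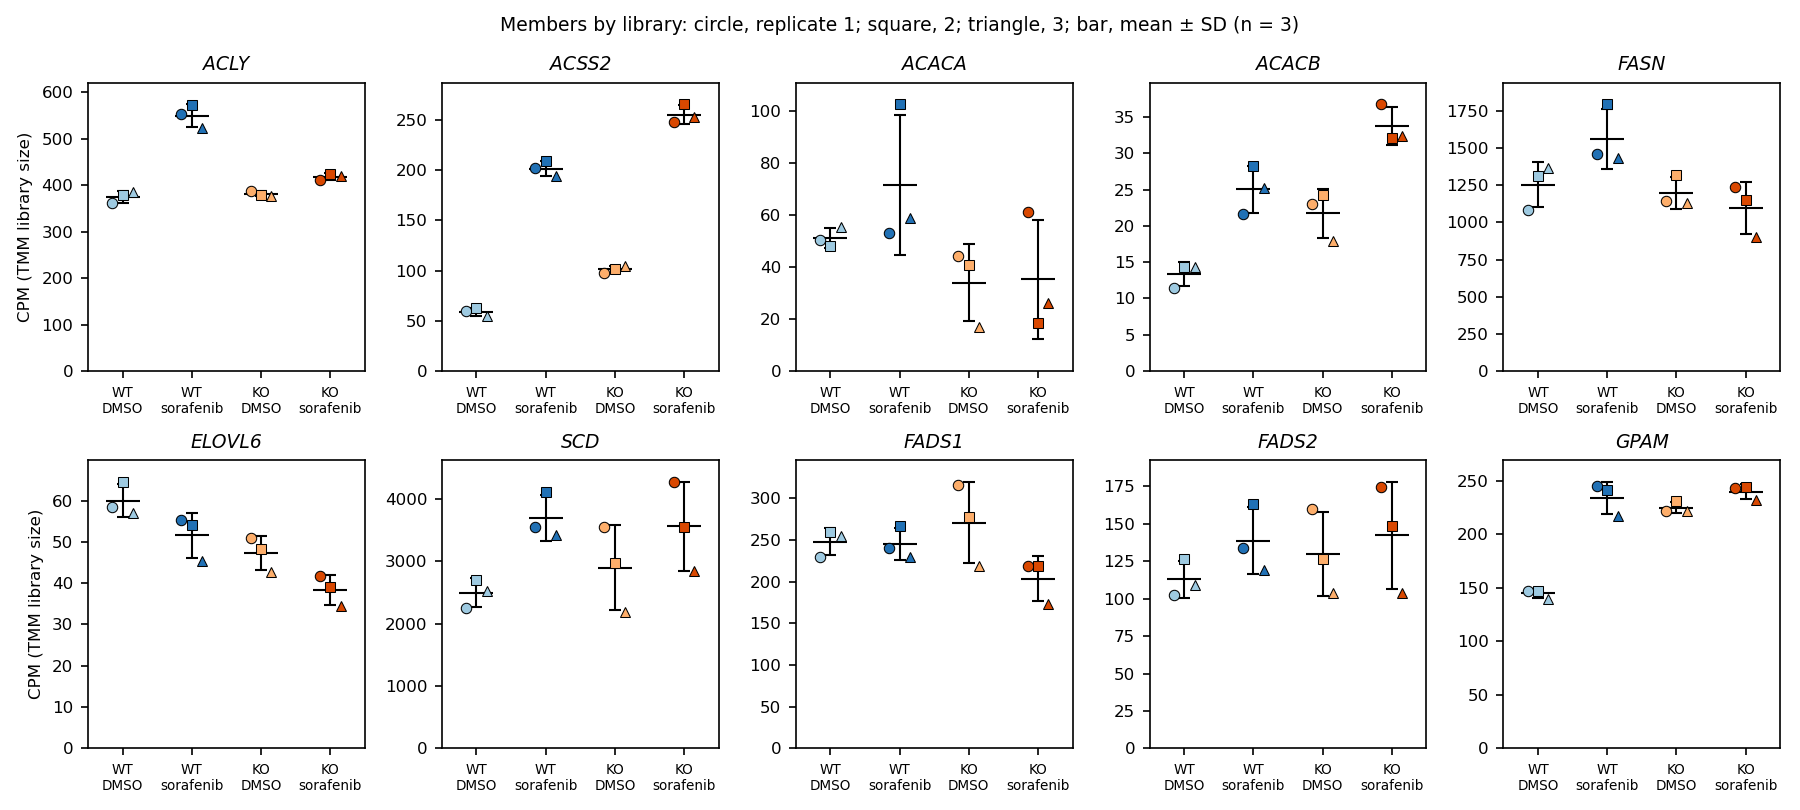
Each panel plots one gene's level in CPM (linear axis from 0) in the 12 libraries, with the group mean and SD. ACSS2 rises with drug in both genotypes, from 54.4 to 63.0 CPM up to 194 to 209 CPM in WT, whereas GPAM in ARID1B-KO cells with DMSO is already at 222 to 231 CPM.

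ACSS2, the acetyl-CoA synthetase that uses acetate (chr20:34872146-34927962, plus strand, GRCh38), changed most. Its 3 WT libraries with DMSO were at 59.4, 63.0 and 54.4 CPM, and with sorafenib at 202, 209 and 194 CPM. The ARID1B-KO libraries were at 97.6, 102 and 105 CPM under DMSO and at 248, 266 and 253 CPM under sorafenib. The 4 groups did not overlap and stood in the order WT with DMSO, ARID1B-KO with DMSO, WT with sorafenib, ARID1B-KO with sorafenib. The log2 fold change with drug was 1.77 ± 0.080 in WT (adjusted p = 1.02e-08) and 1.33 ± 0.078 in ARID1B-KO cells (adjusted p = 8.14e-08). Without drug ARID1B-KO cells were higher by 0.78 ± 0.078 (adjusted p = 1.24e-05), and under drug by 0.34 ± 0.077 (adjusted p = 0.00537). With an offset for the average transcript length, the first of these genotype differences was 0.59 (adjusted p = 0.0773) and the second turned to -0.06 (adjusted p = 0.875).

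ACLY, ATP citrate lyase (chr17:41866917-41930542, minus strand), makes acetyl-CoA from citrate. It was at 361, 379 and 385 CPM in WT cells under DMSO and at 554, 572 and 524 CPM under sorafenib. In ARID1B-KO cells it was at 388, 380 and 378 CPM under DMSO and at 411, 425 and 421 CPM under sorafenib. The WT libraries with sorafenib were above the other 9. ACLY rose in WT cells by 0.55 ± 0.079 (adjusted p = 0.000153), while in ARID1B-KO cells the difference was 0.13 ± 0.078 (adjusted p = 0.184). Without drug the genotypes differed by 0.03 ± 0.078 (adjusted p = 0.839), and under drug ARID1B-KO cells were lower by 0.39 on the log2 scale (value -0.39 ± 0.079, adjusted p = 0.00265). With the length offset the WT response was 0.26 (adjusted p = 0.128) and the genotype difference under drug was -0.08 (adjusted p = 0.678).

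The acetyl-CoA carboxylases make malonyl-CoA, ACACA in the cytosol and ACACB at the outer mitochondrial membrane, where malonyl-CoA restrains fatty acid import. ACACB (chr12:109116587-109268226, plus strand) was at 11.4, 14.4 and 14.3 CPM in WT cells under DMSO and at 21.7, 28.2 and 25.2 CPM under sorafenib. It was at 23.1, 24.2 and 17.9 CPM in ARID1B-KO cells under DMSO and at 36.7, 32.1 and 32.3 CPM under sorafenib. The lowest group was WT with DMSO and the highest ARID1B-KO with sorafenib, and the other two overlapped. ACACB rose with drug by 0.91 ± 0.14 in WT (adjusted p = 0.000249) and by 0.64 ± 0.13 in ARID1B-KO cells (adjusted p = 0.00194), and was higher in ARID1B-KO cells by 0.70 ± 0.14 without drug (adjusted p = 0.00237) and by 0.43 ± 0.13 under drug (adjusted p = 0.03). With the length offset these 4 values were 0.15, 0.53, 0.04 and 0.42, and none was called (adjusted p = 0.705, 0.108, 0.931 and 0.252). The call under drug was also lost without WT sorafenib replicate 1 (adjusted p = 0.124) or 3 (0.0749), or without ARID1B-KO sorafenib replicate 1 (0.102) or 2 (0.0561).

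ACACA (chr17:37084992-37406836, minus strand) was at 50.3, 48.0 and 55.5 CPM in WT cells with DMSO, at 53.3, 103 and 59.0 CPM in WT with sorafenib, at 44.2, 40.7 and 17.1 CPM in ARID1B-KO under DMSO and at 61.4, 18.4 and 26.1 CPM in ARID1B-KO with sorafenib. The replicates of 1 group thus differed by up to 3.33-fold, and ACACA passed the test in none of the comparisons (adjusted p between 0.166 and 0.938). Under drug the genotype difference was -1.02 ± 0.49, and it was called without ARID1B-KO sorafenib replicate 1 (-1.69, adjusted p = 0.0243). The transcript tables lacked 14 of the 23 annotated ACACA transcripts. For 3 of these the tables held 1 row outside the annotation with exactly the same length, 9624, 5315 and 7912 bases, and no other unlisted transcript of that length.

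Adding those 3 rows to ACACA, a step chosen after the data were seen and resting on length alone, raised its total over the libraries from 13599 to 32416 counts. The level was then 86.5, 95.2 and 112 CPM in WT with DMSO, 130, 158 and 134 CPM in WT with sorafenib, 125, 96.8 and 97.0 CPM in ARID1B-KO with DMSO and 140, 120 and 98.1 CPM in ARID1B-KO with sorafenib. The WT libraries with drug were now above all 3 WT libraries without it. On this sum the WT response was 0.53 ± 0.15 (adjusted p = 0.0136) and that of ARID1B-KO cells 0.17 ± 0.15 (adjusted p = 0.373). The genotype difference without drug turned from -0.59 ± 0.49 to 0.12 ± 0.15 and that under drug from -1.02 to -0.24 ± 0.15, neither of them called.

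**Figure D2:**
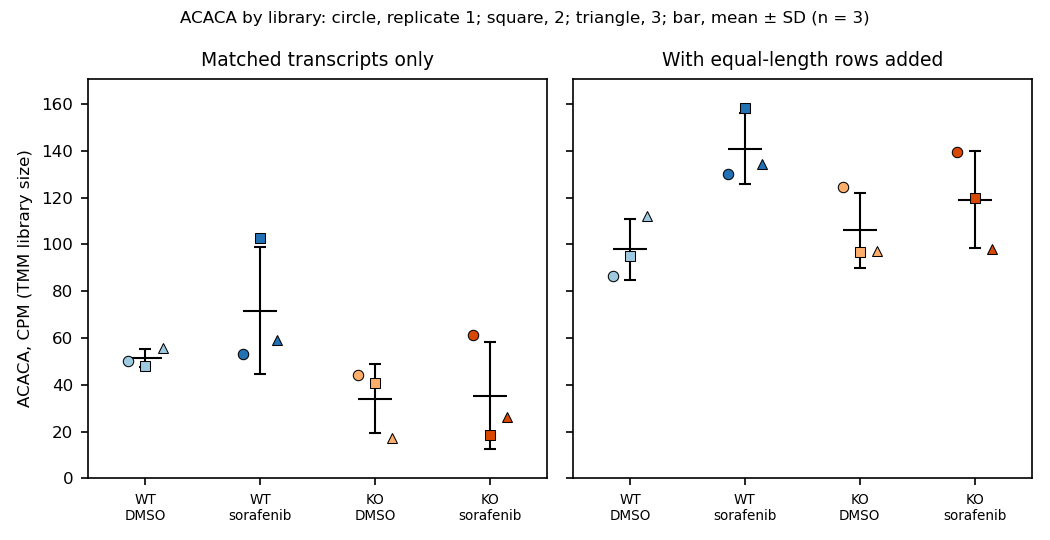
The panels plot ACACA in CPM (linear axis from 0) by library, with the group mean and SD, from the matched transcripts on the left and with the 3 rows of equal length added on the right. On the left WT sorafenib replicate 2 stands at 103 CPM beside 53.3 and 59.0, and on the right that group spans 130 to 158 CPM.

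FASN, fatty acid synthase (chr17:82078338-82098294, minus strand), was at 1082, 1315 and 1366 CPM in WT cells under DMSO and at 1459, 1795 and 1437 CPM under sorafenib. In ARID1B-KO cells it was at 1142, 1319 and 1129 CPM under DMSO and at 1241, 1152 and 904 CPM under sorafenib. All WT libraries with drug lay above the rest, but the WT response did not pass the test (0.32 ± 0.15, adjusted p = 0.11), nor did that of ARID1B-KO cells (-0.12 ± 0.15, adjusted p = 0.526). Under drug FASN was lower in ARID1B-KO than in WT cells (-0.51 ± 0.15, adjusted p = 0.0212), a call lost without WT sorafenib replicate 2 (-0.40, adjusted p = 0.0955) or ARID1B-KO sorafenib replicate 3 (-0.39, adjusted p = 0.0634) and with the length offset (-0.30, adjusted p = 0.0765).

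ELOVL6 (chr4:110045846-110199199, minus strand) elongates palmitate to stearate. It was at 58.5, 64.6 and 56.9 CPM in WT with DMSO, 55.4, 54.0 and 45.4 CPM in WT with sorafenib, 50.8, 48.3 and 42.7 CPM in ARID1B-KO with DMSO and 41.6, 39.0 and 34.4 CPM in ARID1B-KO with sorafenib. In each genotype all libraries with drug lay below those without, and in each treatment all ARID1B-KO libraries lay below the WT ones. ELOVL6 was lower in ARID1B-KO cells without drug (-0.34 ± 0.10, adjusted p = 0.0252) and under drug (-0.43 ± 0.10, adjusted p = 0.00848), and it fell with drug in ARID1B-KO cells (-0.30 ± 0.10, adjusted p = 0.0298). In WT cells the drug response was -0.22 ± 0.10 (adjusted p = 0.121), and -0.855 with the length offset (adjusted p = 0.0582). With the length offset the genotype difference under drug turned to 0.27 (adjusted p = 0.577), and the other two calls were lost (adjusted p = 0.235 and 0.937). The call without drug was also lost without WT DMSO replicate 2 (adjusted p = 0.103) or ARID1B-KO DMSO replicate 2 (0.0554) or 3 (0.104), and the call for the drug without ARID1B-KO DMSO replicate 1 (0.145) or 2 (0.1) or ARID1B-KO sorafenib replicate 2 (0.0613) or 3 (0.109).

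SCD, the stearoyl-CoA desaturase that makes oleate and palmitoleate (chr10:100347233-100364826, plus strand), was at 2249, 2710 and 2533 CPM in WT cells under DMSO and at 3556, 4120 and 3432 CPM under sorafenib. In ARID1B-KO cells it was at 3555, 2973 and 2181 CPM under DMSO and at 4283, 3556 and 2854 CPM under sorafenib. The WT groups did not overlap, whereas the ARID1B-KO groups did. SCD rose in WT cells by 0.57 ± 0.19 (adjusted p = 0.0315). In ARID1B-KO cells the difference was 0.30 ± 0.19 (adjusted p = 0.217). The WT call was lost without any one of the 6 WT libraries (adjusted p = 0.0513 to 0.111) and was kept without any one of the ARID1B-KO libraries.

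FADS1 and FADS2, the delta-5 and delta-6 desaturases of polyunsaturated fatty acids, lie on opposite strands of chromosome 11 (FADS1 chr11:61799627-61829318, minus; FADS2 chr11:61792980-61867354, plus), and all 29692 bases of the annotated FADS1 span lie within that of FADS2. The strand setting of the counting is not given in the sources used, so reads of the overlap may be shared between them. FADS1 was at 230, 260 and 255 CPM in WT with DMSO, 240, 267 and 229 CPM in WT with sorafenib, 316, 277 and 219 CPM in ARID1B-KO with DMSO and 219, 219 and 173 CPM in ARID1B-KO with sorafenib. It fell with drug in ARID1B-KO cells (-0.41 ± 0.14, adjusted p = 0.0232), though the lowest library without drug and the highest with drug met at 219 CPM. The call was lost without ARID1B-KO DMSO replicate 1 (-0.26, adjusted p = 0.153) or 2 (-0.38, adjusted p = 0.0793) or ARID1B-KO sorafenib replicate 3 (-0.31, adjusted p = 0.0826). FADS2 was at 102, 127 and 109 CPM in WT with DMSO, 134, 163 and 119 CPM in WT with sorafenib, 160, 126 and 104 CPM in ARID1B-KO with DMSO and 175, 149 and 104 CPM in ARID1B-KO with sorafenib. Its groups overlapped in every comparison and none of its differences passed the test (adjusted p between 0.258 and 0.909).

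The spread of the 3 desaturases within a group was shared. In each of the 4 groups SCD, FADS1 and FADS2 ranked the 3 libraries in the same order, and that order was also the order of the mitochondrial share of counts. Of the 12821 genes tested, 157 (1.22%) followed the mitochondrial share in all 4 groups, and among the 10 members these 3 did. The mitochondrial share was 12.2%, 8.24% and 6.75% in the ARID1B-KO libraries with DMSO and 12.3%, 9.85% and 9.08% in those with sorafenib. In a fit with the mitochondrial share as a covariate, added after the data were seen, the SCD response in WT was 0.41 ± 0.10 (adjusted p = 0.00837) and that in ARID1B-KO cells 0.14 ± 0.11 (adjusted p = 0.32). The FADS1 response in ARID1B-KO cells was then -0.52 ± 0.092 (adjusted p = 0.000513), and the FADS1 genotype difference under drug moved from -0.27 (adjusted p = 0.159) to -0.25 (adjusted p = 0.0448). ELOVL6 was called lower with drug in WT cells in that fit (-0.29, adjusted p = 0.0147).

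**Figure D3:**
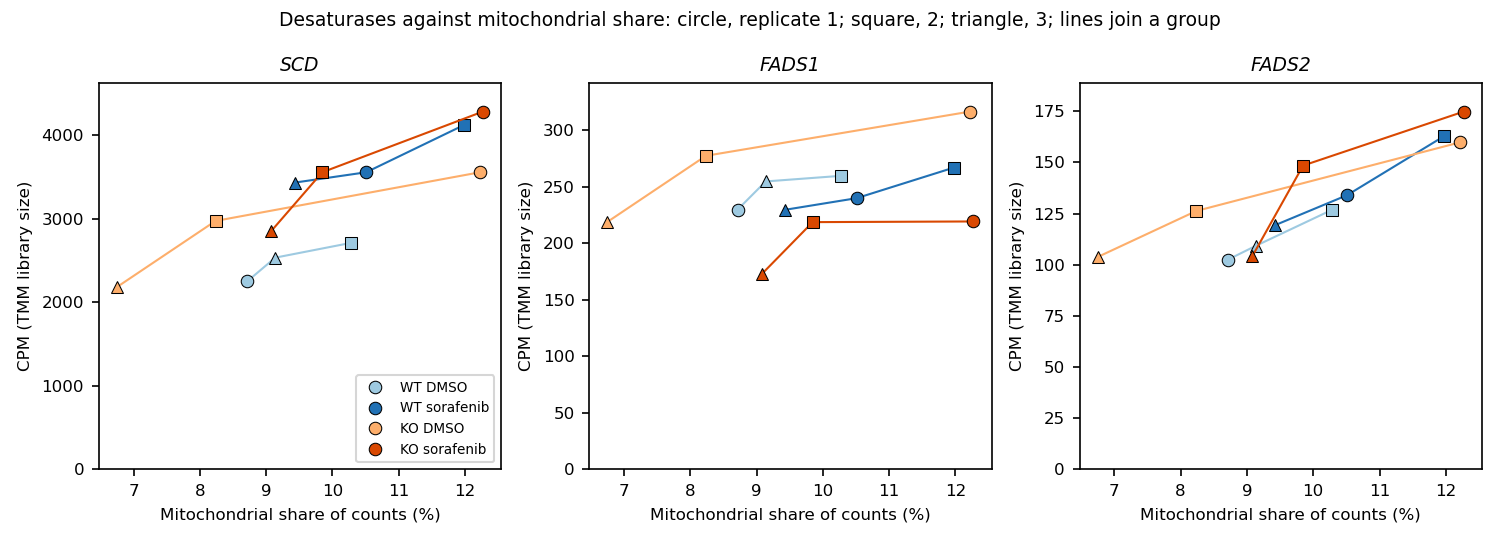
Each panel plots a desaturase in CPM (linear axis from 0) against the mitochondrial share of a library's counts in percent, with lines joining the 3 libraries of a group. Every line climbs from left to right, and in ARID1B-KO cells with DMSO SCD goes from 2181 CPM at 6.75% to 3555 CPM at 12.2%.

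GPAM, the mitochondrial glycerol-3-phosphate acyltransferase that commits acyl-CoA to glycerolipids (chr10:112149865-112215377, minus strand), was at 147, 147 and 140 CPM in WT cells under DMSO and at 245, 241 and 217 CPM under sorafenib. In ARID1B-KO cells it was at 222, 231 and 222 CPM under DMSO and at 244, 244 and 232 CPM under sorafenib. The WT libraries without drug stood alone below the other 9. GPAM rose with drug in WT cells by 0.69 ± 0.077 (adjusted p = 1.96e-05), and without drug it was higher in ARID1B-KO cells by 0.63 ± 0.077 (adjusted p = 6.03e-05). In ARID1B-KO cells the drug response was 0.09 ± 0.076 (adjusted p = 0.34), and under drug the genotypes differed by 0.04 ± 0.076 (adjusted p = 0.771).

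Between the genotypes, 4 members differed without drug, ACSS2, ACACB and GPAM higher and ELOVL6 lower in ARID1B-KO cells, where 27.8% of all genes were called, 14.3% higher and 13.5% lower. The libraries of 5 members did not overlap there, beside 42.2% of all genes. Under drug 5 differed, ACSS2 and ACACB higher and ACLY, FASN and ELOVL6 lower, where 27.0% of all genes were called, 13.2% higher and 13.8% lower. The libraries of 6 members did not overlap there, beside 42.7% of all genes. With the length offset 1 member was called without drug (GPAM) and 0 under drug, where 2 had an unadjusted p under 0.05 and DESeq2 without the offset called 5. The same offset left 3 calls for the drug in WT cells (ACSS2, SCD and GPAM) and 1 in ARID1B-KO cells (ACSS2). The drug and genotype comparisons share groups, so their values are given side by side only.

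**Figure D4:**
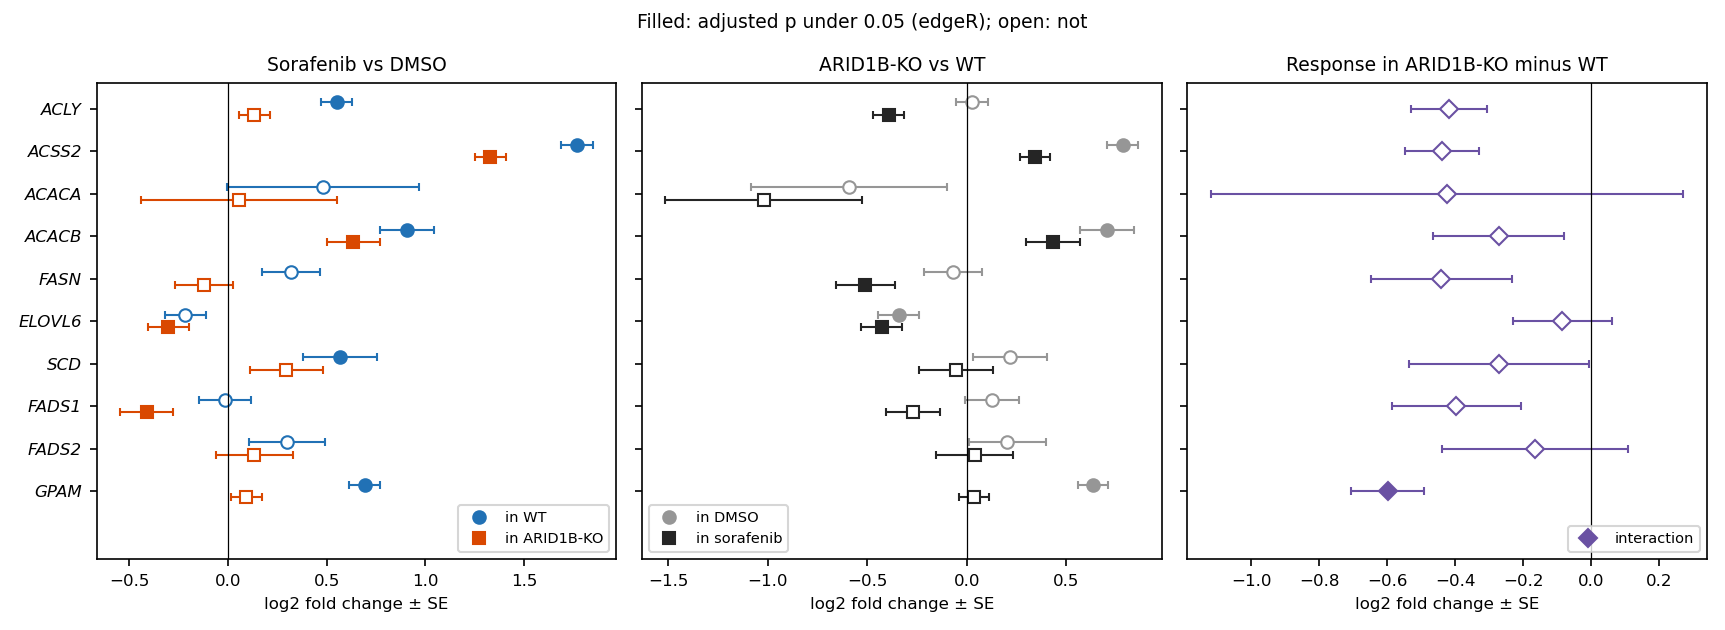
The panels plot log2 fold changes with SE for the drug in each genotype, for the genotype in each treatment and for the difference of the drug responses. Filled symbols passed an adjusted p under 0.05. In the right panel all 10 values are below 0, and GPAM alone is filled, at -0.60. The sign differed for ACACB and ELOVL6 with the length offset and for FADS2 in a fit without 1 library.

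Whether the drug responses differ was tested by the genotype by treatment interaction, the response in ARID1B-KO cells minus that in WT cells. GPAM was the one member called, at -0.60 ± 0.11 (adjusted p = 0.0308), where 0.835% of all genes were called and 0.460% were called below 0. ACLY (-0.42 ± 0.11, adjusted p = 0.092) and ACSS2 (-0.44 ± 0.11, adjusted p = 0.074) did not pass, and the remaining 7 members had adjusted p-values from 0.335 to 0.84. All 10 values were below 0, with a median of -0.41, beside 51.4% of all genes below 0 and a median of -0.01. With the length offset, however, ACACB (0.384) and ELOVL6 (0.816) were above 0, and FADS2 reached 0.03 when 1 library was left out. The 10 genes are measured in the same libraries, so the common sign is a description. DESeq2 and the fit with the mitochondrial share each called ACLY, ACSS2 and GPAM, whereas with the length offset (GPAM at -0.684, adjusted p = 0.129) and with the replicate number as a block (GPAM at -0.598, adjusted p = 0.0562) none of the 10 was called (2 and 5 had an unadjusted p under 0.05). The GPAM value stayed between -0.57 and -0.65 when any 1 library was left out, but its adjusted p passed 0.05 in 10 of the 12 cases and reached 0.0965. It was kept without WT DMSO replicate 1 or ARID1B-KO sorafenib replicate 3.

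Levels between genes were compared per length, as TPM (the deposited unit scaled for transcript length) summed over transcripts of at least 1000 bases, a limit set after the data were seen because short transcripts held 66.0% to 76.1% of the summed TPM of FASN and 7.05% to 13.1% of its counts. SCD was the most abundant member in every library, at 478 to 897 TPM. In WT cells with DMSO it was followed by ACLY (59.6 ± 2.6 TPM, SD, n = 3) and FASN (54.3 ± 6.6), which overlapped, then by FADS1 (40.0 ± 2.2) and GPAM (38.5 ± 0.66), which overlapped, and then by FADS2 (22.9 ± 1.9), ELOVL6 (22.2 ± 0.90) and ACSS2 (20.2 ± 0.92). FADS2 and ELOVL6 overlapped, and ELOVL6 lay above ACSS2. ACACA (5.33 ± 0.43) and ACACB (1.05 ± 0.21) were last, ACACA without the rows of equal length. ACSS2 moved from the eighth place there to the third in WT cells with sorafenib (68.5 ± 1.4), where it overlapped FASN, and to the second in ARID1B-KO cells with sorafenib (101 ± 14). Over all transcripts, short ones included, the order in WT cells with DMSO was SCD, FASN (194 ± 28.6 TPM), ACLY (86.7 ± 18.3), FADS1, FADS2, GPAM, ACSS2 (41.6 ± 15.1), ELOVL6 (38.1 ± 13.4), ACACA and ACACB. On that scale the 10 genes came to 1044 ± 108 TPM in WT with DMSO, 1471 ± 114 in WT with sorafenib, 1257 ± 135 in ARID1B-KO with DMSO and 1427 ± 117 in ARID1B-KO with sorafenib, of which SCD gave 51.3% to 55.5% on average by group.

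Assignment of reads to transcripts was uneven among the members. SCD has 1 transcript, and for FADS1, GPAM and FASN a single one held on average 98.3%, 97.2% and 91.4% of the counts. For ACSS2, transcripts annotated as not coding a full protein held 53.7% to 98.8% of a library's ACSS2 counts, most of them on a single nonsense-mediated decay transcript (64.1% on average). For ACACB the share of the canonical transcript ran from 0% to 97.4% between libraries, and for ACLY it ran from 0% to 67.7% among near-identical transcripts of 4293, 4318 and 4309 bases. FADS2 counts came mainly from transcripts that start close to the FADS1 start (a window chosen after the data were seen), with 67.1% ± 6.3 (SD, n = 3) in WT with DMSO, 66.9% ± 9.9 in WT with sorafenib, 83.3% ± 2.0 in ARID1B-KO with DMSO and 76.2% ± 1.0 in ARID1B-KO with sorafenib. The canonical FADS2 transcript, which starts further downstream, held 22.6% ± 5.2 and 8.89% ± 2.5 in WT and ARID1B-KO cells with DMSO. The estimates carry no error of their own and were not tested.

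Of the transcription factors and sensors above the pathway, the summed counts of SREBF1, the gene of SREBP-1c, passed the test in none of the 5 comparisons. Transcripts annotated as not coding a full protein held 63.55% to 80.21% of a library's SREBF1 counts. The coding transcripts were not tested alone. The SREBF1 sum was at 113, 128 and 135 CPM in WT with DMSO, 102, 130 and 116 CPM in WT with sorafenib, 96.0, 111 and 88.3 CPM in ARID1B-KO with DMSO and 111, 107 and 83.6 CPM in ARID1B-KO with sorafenib, with its largest difference between genotypes without drug (-0.35 ± 0.13, adjusted p = 0.0593). SREBF2, which drives cholesterol synthesis, rose with drug by 0.49 ± 0.16 in WT (adjusted p = 0.032) and by 0.53 ± 0.16 in ARID1B-KO cells (adjusted p = 0.017). MLXIPL, the gene of ChREBP, rose by 0.52 ± 0.13 (adjusted p = 0.00807) and 1.20 ± 0.13 (adjusted p = 1.28e-05). It was lower in ARID1B-KO cells without drug (-0.41 ± 0.13, adjusted p = 0.0339), and its interaction of 0.68 ± 0.19 was not called (adjusted p = 0.0995). NR1H3, the gene of the liver X receptor alpha, rose by 0.43 ± 0.091 (adjusted p = 0.00243) and 0.35 ± 0.091 (adjusted p = 0.00662). For INSIG1, which retains SREBPs in the endoplasmic reticulum, 0 to 7 counts in a library were assigned to its 6 annotated transcripts, and the gene was under the filter. Whether reads of INSIG1 were assigned to other rows of the tables was not tested, so its level is not known from these values. Over the 15 tested of 17 regulators, 5 rose and 3 fell with drug in WT, beside 35.4% of all genes called. With drug 5 rose and 2 fell in ARID1B-KO cells, beside 46.7%. MLX (-0.43 ± 0.11 in WT, adjusted p = 0.00801) and PPARGC1B, a gene with few counts, fell in both genotypes. INSIG2 was called lower in WT. RXRA rose most in WT (1.04 ± 0.099, adjusted p = 5.5e-06). In ARID1B-KO cells 2 were higher and 2 lower without drug (27.8% of all genes called), and USF1 (0.66 ± 0.10, adjusted p = 0.000462) and USF2 (0.39 ± 0.072, adjusted p = 0.00161) were higher and none lower under drug (27.0%).

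The 6 AMPK subunit genes listed, to which PRKAG3 does not belong, were all tested. With drug 0 rose and 2 fell in WT, beside 35.4% of all genes called, and 1 rose and 3 fell in ARID1B-KO cells, beside 46.7%. PRKAA1, a catalytic subunit, fell in both (-0.42 ± 0.084, adjusted p = 0.00189, and -0.41 ± 0.086, adjusted p = 0.00172) and was lower in ARID1B-KO cells in both treatments (-0.47 ± 0.085, adjusted p = 0.00133, and -0.46 ± 0.086, adjusted p = 0.00167). PRKAG2, a regulatory subunit with few counts (16 to 70 in a library), also fell with drug in both (-0.95 ± 0.26, adjusted p = 0.011, and -1.30 ± 0.25, adjusted p = 0.000946). Between genotypes 2 were higher and 1 lower without drug (27.8% of all genes), and 0 higher and 1 lower under drug (27.0%).

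The other genes that supply, activate and elongate fatty acids were mixed. Of 22 tested of 25 listed, 3 rose and 2 fell with drug in WT, where 35.4% of all genes were called, and 5 rose and 5 fell in ARID1B-KO cells, where 46.7% were. Among the acyl-CoA synthetases, ACSL5 rose (1.26 ± 0.12, adjusted p = 7.17e-06, and 1.69 ± 0.13, adjusted p = 4.53e-07) and ACSL1 rose (0.90 ± 0.11, adjusted p = 3.92e-05, and 0.57 ± 0.11, adjusted p = 0.000881). ACSL3 fell (-1.10 ± 0.14, adjusted p = 5.52e-05, and -1.15 ± 0.14, adjusted p = 2.4e-05), as did ACSL4 (-0.55 ± 0.097, adjusted p = 0.000814, and -1.02 ± 0.098, adjusted p = 3.77e-06), which prefers polyunsaturated acids. In ARID1B-KO cells 4 were higher and 1 lower without drug, and 3 higher and 4 lower under drug (27.8% and 27.0% of all genes called). Without drug the NADPH producer IDH1 was higher (0.73 ± 0.12, adjusted p = 0.000597) and the elongase ELOVL2 lower (-0.50 ± 0.097, adjusted p = 0.00216).

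Of the glycerolipid synthesis and storage genes, 16 of 18 were tested, and 8 rose and 2 fell with drug in WT, 9 rose and 2 fell in ARID1B-KO cells (17.5% and 23.0% of all genes higher, 18.0% and 23.7% lower). The diacylglycerol acyltransferases, which close triglyceride synthesis, rose in both genotypes, DGAT1 by 1.18 ± 0.15 and 1.11 ± 0.15 (adjusted p = 5.59e-05 and 5.77e-05) and DGAT2 by 1.11 ± 0.15 and 1.30 ± 0.15 (adjusted p = 0.000128 and 2.3e-05). AGPAT5 fell in both (-0.78 ± 0.11 and -0.66 ± 0.11, adjusted p = 0.000166 and 0.000363). Between genotypes 5 were higher and 3 lower without drug, and 6 higher and 2 lower under drug (27.8% and 27.0% of all genes called). MOGAT2 was higher in ARID1B-KO cells in both (1.11 ± 0.086 and 0.85 ± 0.085, adjusted p = 1.4e-06 and 1.28e-05), and PLIN2, a lipid droplet coat protein, lower in both (-0.50 ± 0.13 and -0.39 ± 0.13, adjusted p = 0.0113 and 0.0399).

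Of the 15 cholesterol synthesis and uptake genes, 11 rose and 0 fell with drug in WT, and 8 rose and 0 fell in ARID1B-KO cells, beside 17.5% and 23.0% of all genes called higher. Without drug 9 were higher in ARID1B-KO cells and 0 lower, and under drug 5 were higher and 0 lower, beside 14.3% and 13.2% of all genes called higher. HMGCS1 rose by 1.01 ± 0.10 in WT (adjusted p = 8.87e-06) and by 0.32 ± 0.10 in ARID1B-KO cells (adjusted p = 0.0183), and its interaction was called (-0.69 ± 0.14, adjusted p = 0.0438), like that of GPAM. Of the 12 fatty acid oxidation genes, 9 rose and 0 fell with drug in each genotype, with ACADS at 0.87 ± 0.089 and 0.98 ± 0.089 (adjusted p = 9.86e-06 and 2.48e-06). Between genotypes 3 were higher and 3 lower without drug, and 1 higher and 3 lower under drug (27.8% and 27.0% of all genes called). CPT1A, the step that ACACB's product restrains, was called lower in ARID1B-KO cells in both treatments (-0.76 ± 0.17 under drug, adjusted p = 0.00523). Its means without drug were 15.1 CPM in WT and 10.7 CPM in ARID1B-KO cells. With drug CPT1A rose in WT (0.47 ± 0.17, adjusted p = 0.0472) and was not called in ARID1B-KO cells. Outside the cholesterol genes, edgeR called no interaction in the 5 other lists, where 9 of 71 genes had an unadjusted p under 0.05 and DESeq2 called 5.

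The genes most like 3 of the members were found by Pearson's r of log2 CPM over the 12 libraries, as a description of points that share groups and depth. The levels of ACSS2 were closest to those of PALM (r = 0.993), TBX2 (0.99) and CALM3 (0.99), and with the group means removed these were -0.05, 0.45 and -0.13. Among the genes closest to SCD were GJB1 (0.96) and ITPR2 (0.959), and with the group means removed these were 0.94 and 0.99. FASN was closest to WDR7 (0.947), KDM3B (0.935) and CDK12 (0.933), which stayed at 0.91, 0.92 and 0.90. These genes were picked by r in the same 12 libraries. For them, removing the group means left r at 0.45 or below with ACSS2 and near or above 0.90 with SCD and FASN.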

How the data were processed

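Polyadenylated RNA of 12 HepG2 libraries was read as paired ends. Each library has 1 Salmon table which, per the file headers, gives an estimated count and a TPM for 177456 transcripts. The deposited estimated counts are not normalised, and the TPM deposited by the authors are scaled per length to a fixed total in each library. Salmon, DESeq2 1.46.0 and the build GRCh38 are named in the submitters' processing notes. The design text names Ensembl release 109, which is uncertain, since 29910 transcripts of GENCODE release 44 carry numbers above the highest in the tables.

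Identifiers without version were matched to GENCODE release 44 (165533 transcripts, 93.3%). The other 11923 rows held 2.87% to 3.20% of the counts and were left out, except in the added ACACA sum. Counts were summed to 35810 genes and rounded. edgeR 4.0.16 (R 4.3.3) fitted all 12 libraries with 4 group means, TMM normalisation, filterByExpr (12821 genes kept) and the robust quasi-likelihood F test, with Benjamini-Hochberg adjustment over all genes tested. The threshold for a call was an adjusted p of 0.05. SE was taken from the log2 fold change and F (its size over the root of F). Each p-value sets a group difference against the spread between these libraries, estimated over the 4 groups together and moderated across genes. The fit was tested on simulated data. Alternatives used DESeq2 1.42.0, limma 3.58.1, other normalisations and filters, a length offset, a replicate block and each library left out.

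Named were all 10 members, the regulators SREBF1, SREBF2, INSIG1, MLXIPL and NR1H3, ARID1B, up to 3 called genes with the largest rise and fall per list and comparison, and the 3 genes most like FASN, SCD and ACSS2. The members and lists were chosen with earlier results of these data known. The group of each library was taken from its title. Genes under the filter (ME1, THRSP, SCD5, ELOVL4, GPAT2 and AGPAT4 among them) were not tested. Values of 2 genes that the rules would name are not reported here.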

Additional observations from a re-analysis of the deposited data

Results flagged for a closer look

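The difference between the drug responses of the 2 genotypes passed its own test for GPAM, whose response in ARID1B-KO minus that in WT cells was -0.60 ± 0.11 (edgeR, adjusted p = 0.0308). The call was lost with the replicate number as a block (adjusted p = 0.0562), with the length offset (adjusted p = 0.129) and in 10 of the 12 fits without 1 library (up to 0.0965). The 3 WT libraries without drug were all lower than the other 9.

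Rows outside the gene table held 58.1% of the combined counts when the 3 rows whose lengths equal those of unlisted ACACA transcripts were added to ACACA. The sum rose with drug in WT cells by 0.53 ± 0.15 (0.525 on the log2 scale, edgeR adjusted p = 0.0136), and the added rows were not tested alone.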

How the results depend on the processing

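Over the 10 members and 5 comparisons, 1140 alternative values were computed. In 1080 the direction and the side of the threshold held, or a sign differed with neither value called (29 values). In 48 a call was lost, in 10 one was gained and in 2 the sign of a called value turned. Both turned under the length offset, with ACSS2 at -0.062 and ELOVL6 at 0.27 for the genotype under drug, and in the other lists DHCR7 turned to -0.23 for the genotype without drug. The cause was not tested. With that offset the calls among members were 3 for the drug in WT, 1 for the drug in ARID1B-KO and 1 for the genotype without drug. For the genotype under drug and the interaction they were 0 and 0 (unadjusted p under 0.05 in 2 and 2 members). Over all genes 2870 were called for the drug in WT and 4089 in ARID1B-KO, in place of 4543 and 5982. For the genotype 2190 were called without drug and 2049 under drug, and 2 for the interaction, in place of 3563, 3463 and 107.

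The interaction was the least stable. DESeq2 called 3 members and 578 genes, the fit with the mitochondrial share 3 members and 345 genes. The correlations of the deviations of same-numbered libraries ran from -0.12 to 0.18 over the drug and genotype comparisons. For the drug in WT they were 0.05 to 0.08, above those of differently numbered libraries (-0.08 to 0.008). These values cannot decide whether the replicate numbers pair the libraries. With the replicate number as a block 0 members (5 at an unadjusted p under 0.05, GPAM at an adjusted p of 0.0562) and 19 genes were called. The block also brought a call for ELOVL6 for the drug in WT (adjusted p = 0.0444). With only the libraries compared, 2 members were called for the drug in ARID1B-KO cells, where FADS1 (adjusted p = 0.0647) and ELOVL6 (adjusted p = 0.0512) were lost, and with upper quartile normalisation ELOVL6 was lost there (adjusted p = 0.0561).

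Leaving out 1 library gave 4 to 5 members and 3587 to 4762 genes for the drug in WT. For the drug in ARID1B-KO it gave 2 to 4 members and 5143 to 6076 genes. For the genotype it gave 3 to 4 members and 2529 to 3851 genes without drug, and 4 to 5 and 2479 to 3596 under drug. For the interaction it gave 0 to 1 members and 5 to 138 genes. An arm left with 2 libraries shared the spread of the others. Few counts were assigned to the annotated transcripts of INSIG1, AGPAT2 and PPARGC1B, and the part of depth and of reads on other rows of the tables in this was not tested.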
